A study of Mus musculus with 12 samples.

Results

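RNA of extensor digitorum longus (EDL) muscle was compared with RNA of dividing C2C12 myoblasts across all genes of a mouse array, on 6 of the 12 arrays of the series. The 6 arrays were chosen by label: EDL replicates 1 to 3 and myoblast replicates 1 to 3, paired by replicate number because arrays of 1 number sat on 1 slide. The EDL samples came from male CD1 mice, an outbred strain, aged 3 months, and each sample pooled the EDL muscles of both hind limbs of 1 mouse. The EDL is a fast, glycolytic muscle of the lower leg, and it was homogenized whole, so its RNA also holds that of vessels, nerve, connective tissue and blood cells. C2C12 is an established mouse myoblast line, here grown in medium with fetal bovine serum and collected at about 50% confluence while dividing. The groups therefore differ in strain, in life in an animal against life in culture and in cell composition as well as in stage. They also differed in RNA of sex chromosome genes, given at the end. The arrays cannot separate these. The other 6 arrays, of C2C12 myotubes differentiated for 96 hours and of soleus muscle, were used to place the values. The labels do not say whether the 3 myoblast samples were grown separately, so the spread behind the p-values is that between these samples and, for the cultures, may be technical.

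Myoblasts are mononucleated precursors that divide, then leave the cell cycle and fuse into fibres. In the adult fibre, contraction rests on sarcomeres, on calcium release from the sarcoplasmic reticulum and its uptake by SERCA pumps, and on ATP from phosphocreatine, glycolysis and mitochondria. Many muscle proteins have a near relative used by other tissues, and use can shift from one relative to the other as muscle matures. A dividing cell instead needs deoxynucleotides (dNTPs) for nuclear DNA, whereas a fibre needs them only for mitochondrial DNA and repair, which is the subject named in the series title.

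On each array 43379 spots were not controls and no spot was saturated. The share of probes well above background was 57.4% to 72.8% in EDL and 63.1% to 70.8% in myoblasts, and the 75th percentile of signal before scaling lay at 466 to 595 on EDL arrays, against 1048 to 1556 on myoblast arrays. The 50 brightest probes held 17% to 19.2% of the signal on EDL arrays and 9.82% to 11.5% on myoblast arrays. Across probes, which are not independent replicates, r was 0.974 to 0.985 among EDL arrays, 0.985 to 0.993 among myoblast arrays and 0.832 to 0.843 between the groups. Levels below are log2 signals scaled to each array's 75th percentile, and differences are EDL minus myoblast in log2 units, given with a standard error (SE). Scaling by the spike-in control RNA instead would lower every EDL minus myoblast difference by 1.36, so a positive difference smaller than that changes sign under it.

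In limma with the slide as a block, calls required an adjusted p under 0.05 together with an absolute difference of at least 1, a 2-fold change. Of 18221 genes tested, 10701 (58.7%) were called, 6009 higher in EDL (33%) and 4692 lower (25.8%). The middle of all genes was close to 0, with a median difference of 0.21 and quartiles of -1.06 and 1.5. By fitted difference 1648 genes were at least 16-fold higher and 647 at least 16-fold lower. These counts include genes at background in 1 group, whose fold was not measured and which the filter kept only through the other group. Of these, all 805 at background on every myoblast array were called higher, and 602 of 719 at background on every EDL array lower. The lowest signal well above background was 3.88 to 4.96 on EDL arrays and 2.73 to 3.24 on myoblast arrays, so the 2 counts cannot be compared. All 10701 called genes kept their sign on each of the 3 slides, but the call rests on these same differences, so this is no separate support. The EDL and myoblast arrays did not overlap for 81.8% of the genes tested, so a gene list has to be read against a background in which most genes differed. The share of calls that were higher was 56.2%, against 23.7% with spike-in scaling and 42.4% with normexp background correction.

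**Figure D1:**
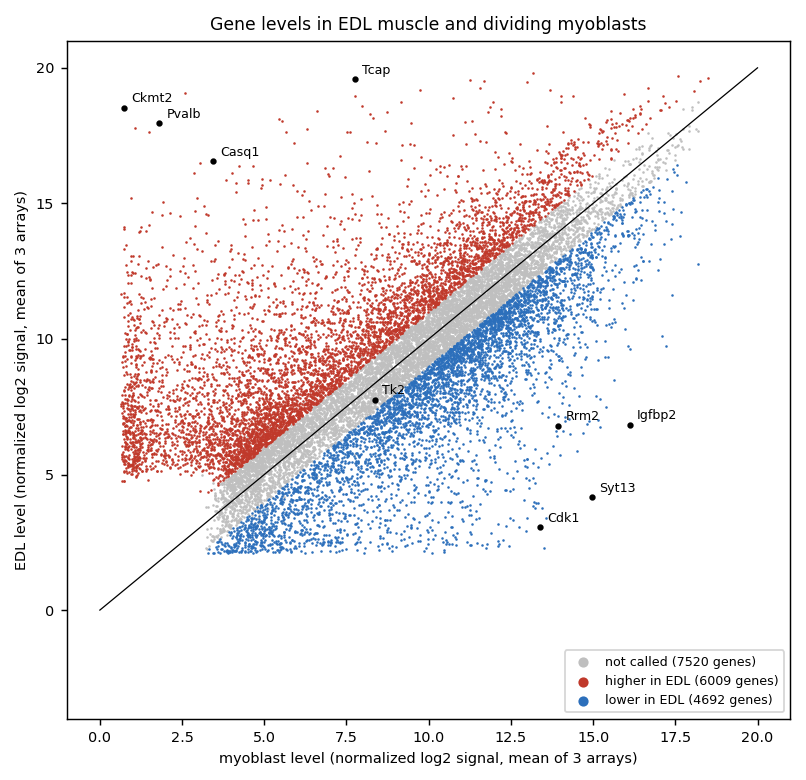
Mean normalized log2 signal of each gene on 3 EDL arrays (vertical axis) against 3 myoblast arrays (horizontal axis), with called genes in colour and the line of equal level in black. The band at the left holds the 805 genes at background on every myoblast array, which the filter kept only because they were above background in EDL.

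Among genes above background on every array, Casq1, calsequestrin of the sarcoplasmic reticulum, had the largest positive difference. It stood at 16.65, 16.39 and 16.63 on the EDL arrays, against 3.69, 3.38 and 3.27 on the myoblast arrays. All 3 EDL arrays were far above all 3 myoblast arrays, and the difference was 13.11 (SE 0.12, adjusted p = 1.01e-05). The lowest signals well above background on the myoblast arrays were 3.24, 2.99 and 2.73. Casq1 lay close to them there, so the size of its difference and its rank rest partly on background. Its probe lies, in the coordinates of the array design (mouse build mm8), on chromosome 1 from 174047146 to 174048649, minus strand, a span longer than the probe. Behind it came the cytosolic muscle creatine kinase Ckm (12.64), the Z-disc protein Myoz1 (12.52), muscle AMP deaminase Ampd1 (12.14), the membrane protein Itm2a (12.04), the muscle subunits of cytochrome c oxidase Cox8b (11.97) and Cox6a2 (11.78), and telethonin, Tcap (11.82), which caps titin. Glycogen phosphorylase of muscle (Pygm, 11.72), Fam131a (11.60), triadin (Trdn, 11.47) and Trim66 (11.37) completed the 12 highest.

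Some genes of adult muscle stayed at background on every myoblast array, so that only a lower bound of the fold can be given. The bound sets the mean of the EDL arrays against the lowest signal well above background on each myoblast array, or the gene's own signal where that was higher. Ckmt2, the creatine kinase of muscle mitochondria (chromosome 13, 92327876 to 92330024, minus strand, mm8), read 18.50, 18.56 and 18.54 on EDL arrays, against 0.96, 0.74 and 0.48 on myoblast arrays, and was at least 47800-fold higher. Parvalbumin (Pvalb), the calcium buffer of fast fibres, was at least 32200-fold higher, the Z-disc protein myotilin (Myot) at least 28500-fold and myospryn (Cmya5) at least 25900-fold. The phosphatase Dusp26 was at least 4780-fold higher and Ppp1r3a, which targets protein phosphatase 1 to glycogen, at least 4290-fold.

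At the other end of the same ranking stood Igfbp2, a binding protein for insulin-like growth factors (chromosome 1, 72785310 to 72785369, plus strand, mm8), which read 6.88, 7.20 and 6.45 on EDL arrays, against 15.94, 16.23 and 16.16 on myoblast arrays. The 2 groups lay far apart, with a difference of -9.27 (SE 0.17, adjusted p = 1.52e-05). The kinetochore motor Cenpe (-8.66), the mitotic kinase Plk1 (-8.18), the cyclin-dependent kinase partner Cks2 (-7.98), the proliferation antigen Mki67 (-7.89), the mitotic kinesin Kif20a (-7.88) and the histone chaperone Asf1b (-7.83) were also among the 12 lowest. So were 5-lipoxygenase (Alox5, -8.48), which starts leukotriene synthesis, the branched-chain amino acid transaminase Bcat1 (-8.26), the water channel Aqp5 (-8.13), the stress cytokine Gdf15 (-8.06) and the monocyte chemokine Ccl2 (-7.80). Of genes not well above background on any EDL array, Syt13, of the synaptotagmin family, was at least 1520-fold lower, Cenpf of the centromere at least 531-fold, the mitotic kinase Cdk1 at least 503-fold and the membrane protein Steap1 at least 442-fold. Prl2c5 was at least 443-fold lower, but it belongs to a family of near-identical genes that its probe may not tell apart.

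Cell division genes were lower as groups. All 25 tested genes of mitosis and cytokinesis were lower in EDL, with a median of -7.88, or -7.48 with the 10 members that were at background in EDL set to their bound. Of 26 nuclear DNA replication genes 25 were lower (median -4.08), and of 19 G1 and S cyclins, kinases and E2F factors 18 were lower (median -3.76). Of 16 homologous recombination and checkpoint genes 12 were lower and 4 were not called (median -3.65, or -3.31 with bounds). The bulk signal of an EDL array is a sum over all its cells, and in it fewer cells of a type and less RNA per cell cannot be told apart.

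Cdk1, the kinase that drives entry into mitosis, read 2.78, 3.04 and 3.38 on EDL arrays, none of them well above background, against 13.29, 13.51 and 13.33 on myoblast arrays (at least 503-fold lower, adjusted p = 1.15e-05). The spindle checkpoint kinase Bub1 read 2.72, 2.02 and 2.33 on EDL arrays, against 12.44, 12.55 and 12.38 on myoblast arrays, and was at least 265-fold lower. Both were at background on every EDL array. Among the replication genes, the replication initiator Mcm10 read 4.85, 5.39 and 5.18 on EDL arrays, 2 of them above background, against 12.54, 12.75 and 12.80 on myoblast arrays (-7.55, SE 0.10). Mcm5, a subunit of the replicative helicase, read 6.75, 7.30 and 7.26 on EDL arrays, against 13.87, 14.28 and 14.26 on myoblast arrays (-7.03, SE 0.08). The licensing factor Cdt1 (-6.68) and the origin recognition subunit Orc1, at least 22.6-fold lower, followed them. The exception of the list was Rpa2, of the single-strand binding complex, at -0.58 (SE 0.11) and not called.

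Upstream of these, the transcription factor Foxm1, which drives mitotic genes, was lower by -7.91 (SE 0.30), and the E2F factors E2f7 (-7.34), E2f8 (-6.56) and E2f1 (-5.82) were lower as well. Of these, E2f7 was above background on 2 of 3 EDL arrays and the other ones on 1 of 3, so the sizes rest partly on background. E2f3 stood at -0.38 and was not called. Of the repair genes, the exonuclease Exo1 was lower by -8.08 (SE 0.29), Brca1 by -7.21 (SE 0.50), each above background on 1 of 3 EDL arrays, and Fanca and the checkpoint kinase Chek1 were at least 120-fold and 47.5-fold lower. The kinase Chek2 stood at -0.67 (SE 0.15) and was not called, or at -1.42 and called as a mean over its probes.

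The promoters of 2 replication and 2 mitosis genes are shown, because these lists moved together and their textbook control rests on short promoter motifs. They were taken by the largest fitted difference among genes whose window holds a searched motif. For Cdk1 and Bub1, at background in EDL, that difference is no measured rank. Each is a RefSeq window in GRCm38.p6, 250 bases before to 50 after the gene's start, read on the gene's strand. Capitals mark the matches to CHR (TTTGAA), the CCAAT box (CCAAT) and an E2F site (TTGGCGC or TTCCCGC), searched on both strands, so that ATTGG and GCGCCAA are matches read from the other strand. CCAAT and the reverse of TTGGCGC share letters and may overlap, which they did not in these windows.
Cdk1 (chr10:69352863-69353162, minus strand): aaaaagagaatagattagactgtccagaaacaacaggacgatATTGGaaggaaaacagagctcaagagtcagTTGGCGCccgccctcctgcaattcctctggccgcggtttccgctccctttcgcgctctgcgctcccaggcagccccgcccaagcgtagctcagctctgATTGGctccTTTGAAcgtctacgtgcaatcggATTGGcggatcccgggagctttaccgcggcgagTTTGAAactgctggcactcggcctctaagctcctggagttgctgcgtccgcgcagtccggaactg
Bub1 (chr2:127831810-127832109, minus strand): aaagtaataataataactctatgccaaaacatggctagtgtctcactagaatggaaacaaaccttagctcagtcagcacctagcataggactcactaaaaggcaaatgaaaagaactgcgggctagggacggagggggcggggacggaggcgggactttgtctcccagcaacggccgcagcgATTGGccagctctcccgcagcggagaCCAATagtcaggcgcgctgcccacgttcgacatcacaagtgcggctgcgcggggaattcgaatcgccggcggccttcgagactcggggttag
Mcm10 (chr2:5012742-5013041, minus strand): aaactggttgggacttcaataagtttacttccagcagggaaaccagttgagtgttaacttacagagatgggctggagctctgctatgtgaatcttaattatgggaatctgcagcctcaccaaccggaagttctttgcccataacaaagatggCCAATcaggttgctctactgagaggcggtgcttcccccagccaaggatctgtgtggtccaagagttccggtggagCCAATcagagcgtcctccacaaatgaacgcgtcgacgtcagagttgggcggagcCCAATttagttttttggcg
Mcm5 (chr8:75109259-75109558, plus strand): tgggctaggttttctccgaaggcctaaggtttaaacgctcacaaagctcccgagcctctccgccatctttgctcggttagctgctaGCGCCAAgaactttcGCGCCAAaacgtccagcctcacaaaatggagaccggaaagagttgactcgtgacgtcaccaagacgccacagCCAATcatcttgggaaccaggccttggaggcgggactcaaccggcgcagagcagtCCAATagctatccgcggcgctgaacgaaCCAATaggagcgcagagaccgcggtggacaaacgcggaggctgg

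In the Cdk1 window TTTGAA stood at bases 180 to 185 and 236 to 241, counted from the first base shown, with the gene's start at base 251. The letters TTTGAA were in 78.3% of the 23 promoter windows of the mitosis list, in 15.4% of the 26 of the replication list and in 17.9% of all 32851 windows. TTCCCGC was in none of the mitosis windows, 46.2% of the replication windows and 4.6% of all windows. TTGGCGC was in 17.4%, 26.9% and 2.45%, and CCAAT in 82.6%, 61.5% and 37.4%, in the same order. The Bub1 window held CCAAT letters but not TTTGAA. These are letter matches in short windows, for 21 of 25 mitosis genes and 22 of 26 replication genes with a window, and no binding was measured.

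The inhibitors of the cell cycle did not move as 1 group. Of 9 tested genes of the CDK inhibitors and retinoblastoma family 3 were higher, 3 lower and 3 not called (median 0.30, or -1.06 with spike-in scaling). Of all genes tested 33% were higher and 25.8% lower, so this split is near the background. The INK4 inhibitor Cdkn2b (p15) read 9.34, 9.42 and 9.33 on EDL arrays, against 1.15, 1.03 and 1.12 on myoblast arrays, none of these above background, and was at least 83.1-fold higher. Cdkn1c (p57) read 12.36, 12.68 and 12.77 on EDL arrays, against 7.41, 7.76 and 7.56 on myoblast arrays (5.03, SE 0.10). The p53 target Cdkn1a (p21) went the other way, with 8.77, 8.98 and 8.84 on EDL arrays, against 12.39, 12.50 and 12.79 on myoblast arrays (-3.69, SE 0.12). In myotubes Cdkn1a stood above both, at 15.86 ± 0.19 (SD, n = 3), and the EDL minus myotube difference was -6.99 (SE 0.08, adjusted p = 1.63e-10). The retinoblastoma relative Rbl1 was lower in EDL (-3.28, SE 0.13), and Cdkn1b (p27) stood at 0.78 (-0.58 with spike-in scaling), without a call. With normexp background correction Cdkn2b stood at 2.02 and was no longer called.

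Of the 14 core enzymes of dNTP synthesis, salvage and breakdown, 9 were lower in EDL, 2 higher and 3 not called (median -2.13). Ribonucleotide reductase makes the precursors of DNA, and its S-phase small subunit Rrm2 read 6.89, 6.90 and 6.62 on EDL arrays, against 13.82, 13.85 and 14.15 on myoblast arrays (-7.13, SE 0.16, adjusted p = 1.91e-05). Its large subunit Rrm1 read 12.26, 12.13 and 12.18 on EDL arrays, against 14.28, 14.36 and 14.38 on myoblast arrays (-2.15, SE 0.09). Rrm2b, the p53-inducible small subunit used outside S phase, was higher, at 9.95, 9.94 and 9.73 on EDL arrays, against 8.26, 8.36 and 8.06 on myoblast arrays (1.65, SE 0.08, adjusted p = 1.1e-04; under spike-in scaling 0.28, without a call). The 2 small subunits thus moved in opposite directions. The groups overlapped for neither, but that held for 81.8% of all genes tested.

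Of the thymidine kinases, the cytosolic Tk1 read 10.11, 10.36 and 10.19 on EDL arrays, against 13.38, 13.70 and 13.84 on myoblast arrays (-3.42, SE 0.11), while the mitochondrial Tk2 read 7.92, 7.58 and 7.80 on EDL arrays, against 8.55, 8.15 and 8.42 on myoblast arrays (-0.61, SE 0.08, not called). Tk1 was not at its lowest in EDL: it was 2.04 higher there than in myotubes (SE 0.08, adjusted p = 5.49e-08). Mitochondrial deoxyguanosine kinase, Dguok, was higher in EDL with 11.61, 11.78 and 11.89, against 10.59, 10.75 and 10.68 in myoblasts (1.09, SE 0.09; -0.27 with spike-in scaling). Thymidylate synthase Tyms (-5.94, 2 of its 3 probes), deoxycytidine kinase Dck (-3.85), dUTPase Dut (-2.79), the nucleotidase Nt5c (-2.12) and dCMP deaminase Dctd (-4.32, above background on 1 of 3 EDL arrays) were lower. The dNTP hydrolase Samhd1 stood at -1.01, but its 2 probes disagreed and their mean gave 1.48, and without replicate 1 it stood at -0.96. The mitochondrial nucleotidase Nt5m (0.73, or -0.63 with spike-in scaling) and thymidine phosphorylase Tymp (-0.60) were not called.

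**Figure D2:**
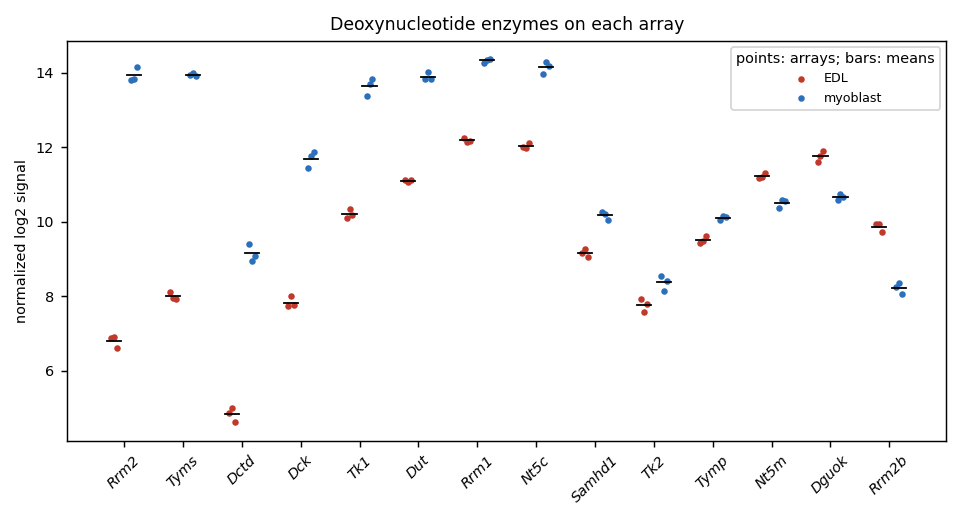
Normalized log2 signal of the 14 deoxynucleotide enzymes on each array, EDL left of myoblast for each gene, ordered by difference, with bars at the means of 3 arrays. From Rrm2 at -7.13 the gap closes and turns, up to Rrm2b at 1.65.

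The enzymes that supply S phase were also lower. Of 15 purine and pyrimidine synthesis genes 9 were lower and 1 higher (median -1.84). Cad, which starts pyrimidine synthesis, was lower by -3.46 (SE 0.08), the nucleoside diphosphate kinase Nme1 by -3.16, UMP synthase Umps by -2.77 and the IMP dehydrogenase Impdh1 by -2.31. The 1 higher member was Adsl of the purine nucleotide cycle (1.34, SE 0.09; -0.03 with spike-in scaling), and Prps1 stood at 0.42 (-0.95 with spike-in scaling).

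Of 12 folate and serine genes 9 were lower and 3 not called (median -2.25), and the serine pathway stood out by size. Psat1 and Phgdh catalyse neighbouring steps from 3-phosphoglycerate to serine. Psat1 (chromosome 19, 15972499 to 15972558, minus strand, mm8) read 7.12, 7.03 and 7.02 on EDL arrays, against 14.23, 14.28 and 14.28 on myoblast arrays, 147.8-fold lower (-7.21, SE 0.09). Phgdh read 9.65, 9.75 and 9.81 on EDL arrays, against 15.88, 16.16 and 16.10 on myoblast arrays (-6.31, SE 0.09). The mitochondrial folate enzymes Mthfd1l (-5.14) and Mthfd2 (-4.30) were lower too. Psat1 was also lower in EDL than in myotubes, by -6.71 (SE 0.05, adjusted p = 4.86e-11), while myotubes stood at -0.50 against myoblasts. The cytosolic Shmt1, with 1 of its 2 probes pointing this way, stood at 0.68 (-0.68 with spike-in scaling), without a call.

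Of 17 cholesterol synthesis genes 14 were lower in EDL, none higher and 3 not called (median -2.31). Squalene epoxidase, Sqle, a rate-limiting step of the late pathway, read 7.09, 6.96 and 7.28 on EDL arrays, against 13.67, 13.56 and 13.68 on myoblast arrays (-6.53, SE 0.09, adjusted p = 1.13e-05). The demethylase Cyp51 was lower by -3.44 and Fdps, which makes farnesyl diphosphate, by -3.23, and the kinase Pmvk stood at -0.61 and was not called. Set against myotubes, which share the culture, 11 of the 17 were lower in EDL (background 19.1% of genes) and none was higher, with Sqle at -5.41 (SE 0.06, adjusted p = 1.42e-10). The median over the list was -2.42 for EDL minus myotube and -0.17 for myotube minus myoblast, and these comparisons share the myotube arrays.

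Of 20 genes of ribosome biogenesis in the nucleolus 16 were lower and 4 not called (median -1.81). The box C/D protein Nop58 was lower by -3.05 (SE 0.09), nucleophosmin Npm1 by -2.28, the rRNA methyltransferase fibrillarin (Fbl) by -2.25 and the helicase Ddx21 by -2.25. Polr1a, the large subunit of RNA polymerase I, stood at -0.51 with probes that disagreed (0.07 as their mean).

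Muscle genes formed the opposite pole. The 15 genes of fast fibre contraction and calcium handling were all higher in EDL (median 9.44), and so were all 20 sarcomere scaffold genes (median 7.27) and all 19 genes of excitation-contraction coupling (median 5.54). Fast myosin-binding protein Mybpc2 read 19.11, 19.07 and 19.05 on EDL arrays, against 2.26, 2.46 and 3.04 on myoblast arrays, of which 1 was above background (16.49, SE 0.19). Myh4, the myosin of the fastest fibres, read 19.22, 18.88 and 18.84 on EDL arrays, against 7.80, 7.81 and 7.70 on myoblast arrays (11.21, SE 0.11). Myosin heavy chain genes are close relatives, and whether a probe hybridized to more than 1 of them was not tested. In the scaffold, α-actinin Actn2 (10.68) and Xirp2 of the intercalated and Z-disc regions (10.02) followed Myot and Tcap. At the membranes, the calcium-binding Hrc of the reticulum (9.14) and the potassium channel Kcnj11 (8.91, above background on 1 of 3 myoblast arrays) followed Trdn.

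Slow fibre genes were mostly higher in EDL than in myoblasts, but unevenly. Of 12 slow fibre genes 9 were higher, 1 lower and 2 not called (median 4.07). In soleus minus EDL 10 of the 12 were higher and none lower (background 4.73% and 5.38% of genes). Against myotubes 9 were lower in EDL and 2 higher (background 19.1% and 29.2%). Slow myosin-binding protein Mybpc1 read 16.36, 16.66 and 16.48 on EDL arrays, against 2.65, 3.40 and 3.12 on myoblast arrays, 2 of them above background (13.45, SE 0.12). It did not separate the muscles, at 0.11 in soleus minus EDL (SE 0.14, adjusted p = 0.562 in limma). The slow light chain Myl2 (10.94, above background on 1 of 3 myoblast arrays), the Z-disc protein Myoz2 (7.10) and the light chain Myl3 (6.55) were higher as well. Slow troponin I, Tnni1, read 11.57, 11.58 and 11.62 on EDL arrays, against 10.58, 10.66 and 10.73 on myoblast arrays (0.93, SE 0.08; -0.43 with spike-in scaling), just under the 2-fold line. Tpm3, the slow tropomyosin, was lower (-3.24, SE 0.08), with probes that disagreed (-0.83 as their mean, not called).

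The promoters of the 2 fast fibre genes with the largest called differences that hold a searched motif are shown in the same form, with capitals at the muscle E-box (CAGCTG, which reads the same on both strands) and the MEF2 core (TATTTAT).
Casq1 (chr1:172219846-172220145, minus strand): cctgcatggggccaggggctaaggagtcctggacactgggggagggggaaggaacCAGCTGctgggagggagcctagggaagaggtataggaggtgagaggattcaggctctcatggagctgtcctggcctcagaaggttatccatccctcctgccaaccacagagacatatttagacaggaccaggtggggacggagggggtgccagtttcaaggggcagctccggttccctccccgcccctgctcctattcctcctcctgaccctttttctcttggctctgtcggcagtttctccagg
Myh4 (chr11:67237562-67237861, plus strand): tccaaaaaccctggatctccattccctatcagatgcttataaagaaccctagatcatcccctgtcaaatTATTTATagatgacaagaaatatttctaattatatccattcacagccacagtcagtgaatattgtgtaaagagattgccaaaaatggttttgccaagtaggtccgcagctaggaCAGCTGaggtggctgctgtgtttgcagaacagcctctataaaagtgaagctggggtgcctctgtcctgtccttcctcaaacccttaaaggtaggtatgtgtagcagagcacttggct

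CAGCTG was in 41.7% of the 12 windows of the fast fibre list, 42.9% of the 14 of the sarcomere scaffold list and 16.3% of all windows. TATTTAT was in 16.7%, 14.3% and 5.6%, in the same order. Windows were found for 11 of 15 and 13 of 20 genes.

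The regulators of the muscle lineage split. Of 15 myogenic regulators 4 were higher, 7 lower and 4 not called (median 0.41, or -0.95 with spike-in scaling), against 33% higher and 25.8% lower of all genes tested. Myf6 (MRF4), the member of the MyoD family found in adult fibres, read 13.55, 13.62 and 13.68 on EDL arrays, against 5.20, 5.25 and 5.82 on myoblast arrays (8.19, SE 0.14). Mef2c, a MADS-box partner of these factors, was higher by 6.90 (SE 0.16), and Mef2d by 2.23 (under spike-in scaling 0.87, without a call). Myf5, the early determination factor, was lower at 5.46, 4.92 and 4.50 on EDL arrays, 2 of them above background, against 9.21, 8.91 and 8.43 on myoblast arrays (-3.89, SE 0.09). Id2, which keeps such factors off DNA, was lower by -3.97 (SE 0.09). Pax7, the satellite cell factor, spread widely in muscle, at 5.81, 7.03 and 8.18 on EDL arrays, against 6.09, 6.29 and 6.50 on myoblast arrays. The groups overlapped and Pax7 was not called (0.71, SE 0.40; -0.65 with spike-in scaling).

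Of 10 genes of embryonic and neonatal muscle 6 were lower, 2 higher and 2 not called (median -1.88). The fetal γ subunit Chrng read 6.98, 7.01 and 7.36 on EDL arrays, against 11.34, 11.54 and 11.50 on myoblast arrays (-4.34, SE 0.11), and the shared α subunit Chrna1 was lower by -3.31 (SE 0.09). The adult ε subunit Chrne was higher, at 12.09, 12.46 and 12.10 on EDL arrays, against 9.21, 8.84 and 8.36 on myoblast arrays (3.42, SE 0.20). Of 9 tested neuromuscular junction genes 2 were higher and 2 lower (median -0.26), against 33% higher and 25.8% lower of all genes tested. Neither share exceeded that of all genes. The higher ones were acetylcholinesterase Ache (6.66, above background on 2 of 3 myoblast arrays) and Chrne. The lower ones were the δ subunit Chrnd (-2.71) and utrophin, Utrn (-1.06). Chrnb1, the β subunit, stood at -0.26 and was not called. With spike-in scaling 7 of the 9 were lower.

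The adhesion molecule Ncam1 was lower (-4.44, SE 0.09; 7 of its 8 probes). Neonatal myosin Myh8 was higher, at 19.72, 19.45 and 19.48 on EDL arrays, against 11.16, 11.33 and 11.32 on myoblast arrays (8.28, SE 0.13). Its value rests on 1 probe, and whether that probe also hybridized to other myosin heavy chains was not tested. Embryonic myosin Myh3 was higher by 1.17 (SE 0.11), with 1 of its 2 probes pointing this way and a spike-in scaled value of -0.19. The embryonic light chain Myl4 stood at 0.48 (-0.88 with spike-in scaling). Against myotubes 9 of the 10 were lower in EDL (background 19.1% of genes), among them Chrng by -9.71 (SE 0.08, adjusted p = 4.74e-11) and Myl4 by -6.91 (SE 0.08, adjusted p = 1.51e-10). Myl4 averaged 17.87 ± 0.09 in myotubes (SD, n = 3), above both EDL and myoblasts.

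The dystrophin-glycoprotein complex links the cytoskeleton to the matrix, and of its 14 genes, membrane repair included, 12 were higher and 2 not called (median 2.80). With spike-in scaling 7 were called. Dystrophin itself, Dmd, read 11.28, 11.31 and 11.26 on EDL arrays, against 1.14, 0.97 and 0.77 on myoblast arrays, none above background, and was at least 314-fold higher. Caveolin-3 (Cav3, 7.28) and calpain-3 (Capn3, 7.04) followed, and β-sarcoglycan Sgcb stood at 0.87 (-0.49 with spike-in scaling).

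Energy genes were higher in nearly every list. All 10 genes of the phosphagen, adenylate and oxygen buffer list were higher (median 10.13), with myospryn (Cmya5), which is no such buffer, among them. Higher too were 20 of 21 glycolysis and glycogen genes (median 4.25) and 23 of 24 TCA cycle and pyruvate genes (median 2.67). So were all 43 nuclear-encoded oxidative phosphorylation genes (median 2.48) and 23 of 24 fatty acid genes (median 2.86). No member of these 5 lists was lower. With spike-in scaling 26 of the 43 oxidative phosphorylation genes and 15 of the fatty acid genes were called higher.

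In sugar metabolism, the insulin-responsive glucose transporter Slc2a4 (GLUT4) read 17.21, 17.23 and 17.22 on EDL arrays, against 5.79, 5.96 and 5.91 on myoblast arrays (11.33, SE 0.08). Phkg1, the catalytic subunit of phosphorylase kinase of muscle, was at least 2270-fold higher. Pgk1, phosphoglycerate kinase of all tissues, stood at 0.93 (SE 0.08; -0.43 with spike-in scaling) and was the member not called. In the TCA list the isocitrate dehydrogenase subunit Idh3b read 16.66, 16.60 and 16.71 on EDL arrays, against 12.53, 12.51 and 12.58 on myoblast arrays (4.12, SE 0.08). The carriers that bring pyruvate into mitochondria, Mpc2 (3.66) and Mpc1 (3.42), and succinate dehydrogenase subunit Sdha (3.21) came next. Idh2, the NADP-linked isocitrate dehydrogenase of mitochondria, stood at 0.73 (-0.63 with spike-in scaling) in EDL and at 4.07 in soleus minus myoblast.

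The oxidative phosphorylation genes lay in a narrow band, with differences from 1.26 to 3.02. Its upper end held complex I subunits Ndufs7 (2.98) and Ndufc1 (2.88) and the Rieske protein Uqcrfs1 of complex III (2.96). The groups did not overlap for any of the 43 (background 81.8% of genes), and the list median stayed within 2.43 and 2.51 on the 3 slides. Against myotubes all 43 were higher in EDL too (background 29.2%), with a median of 1.95.

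In fat metabolism the fatty acid transporter Cd36 (8.92, SE 0.14), the carnitine palmitoyltransferase of muscle Cpt1b (7.69, SE 0.08) and the binding protein Fabp3 (6.55) were higher, and the uncoupling protein Ucp3 was at least 138-fold higher. Cd36 and Fabp3 are also made by endothelium or fat, whose markers were higher on the same arrays, and their part was not tested. The transporter Slc27a1 stood at -0.79 and was not called.

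Of 11 regulators of mitochondrial biogenesis 7 were higher, 1 lower and 3 not called (median 1.92). Perm1, a muscle protein induced with PGC-1α, read 14.08, 14.21 and 14.27 on EDL arrays, against 2.03, 2.77 and 3.88 on myoblast arrays, of which 1 was above background (11.29, SE 0.35). Ppargc1a, PGC-1α itself, read 12.08, 12.74 and 12.99 on EDL arrays, against 5.58, 6.23 and 5.90 on myoblast arrays (6.70, SE 0.16). The nuclear receptors Ppara and Esrrb were at least 170-fold and 31.1-fold higher, although Esrrb stood at 0.84 and was not called with normexp background correction. The related coactivator Pprc1 was lower (-1.69, SE 0.11), and Nrf1 stood at -0.94 and was not called.

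The machinery of mitochondrial DNA itself hardly followed. Of 13 genes of its replication and transcription 3 were higher, none lower and 10 not called (median 0.25, or -1.11 with spike-in scaling). The higher ones were the transcription factor Tfb2m (1.57), the helicase Twnk (1.37) and the exonuclease Mgme1 (1.24), and with spike-in scaling they stood at 0.20, 0.01 and -0.12. The polymerase Polg read 10.86, 10.70 and 10.71 on EDL arrays, against 10.97, 10.82 and 10.83 on myoblast arrays (-0.12, SE 0.08), with overlapping groups. AAGGTCA, the site of estrogen-related receptors, was in 2.7% of the promoter windows of the oxidative phosphorylation list, 11.1% of the TCA list, 8% of the fatty acid list and 4.72% of all windows, with both strands searched.

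**Figure D3:**
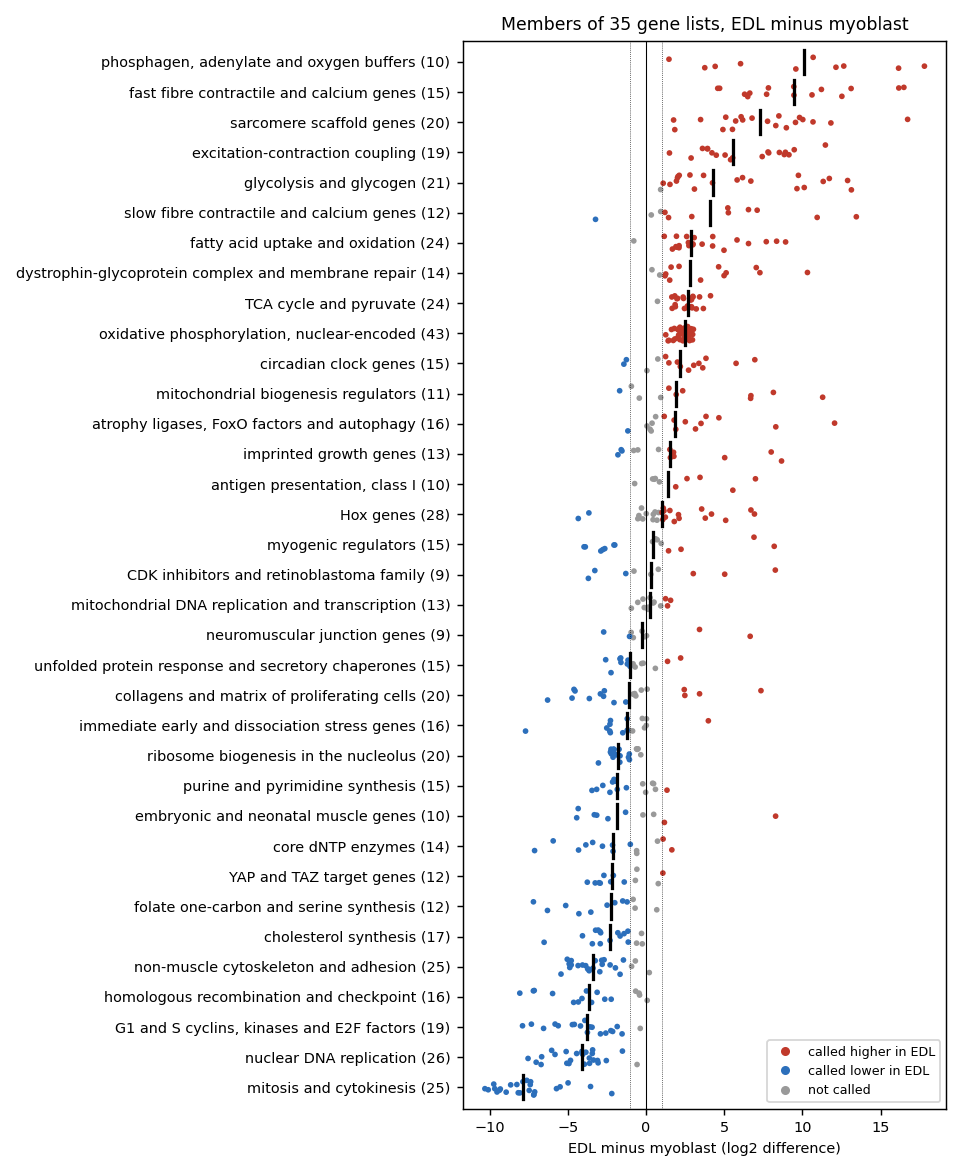
EDL minus myoblast log2 difference of every tested member of the 35 pathway lists, 1 point per gene, with the number tested in brackets and a black bar at the list median. The lists run from phosphagen and oxygen buffers at 10.13 down to mitosis at -7.88, and dotted lines mark the 2-fold limits.

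In 26 protein families 2 forms were set side by side, in most a muscle form and a form of other tissues. The small subunits of ribonucleotide reductase (Rrm2b beside Rrm2) and the thymidine kinases (mitochondrial Tk2 beside cytosolic Tk1) are not tissue forms. In the counts below Rrm2b and Tk2 stand in the place of the muscle form. The muscle form was higher in 25 families and the other form lower in 21, and in 20 families both held. Levels of the 2 probes of a pair cannot be compared, so only their differences are given. Ribosomal protein Rpl3l read 16.10, 16.06 and 16.21 on EDL arrays, against 2.31, 2.93 and 3.36 on myoblast arrays (13.26, SE 0.21; above background on 1 of 3 myoblast arrays). Its ubiquitous relative Rpl3 read 12.90, 12.81 and 12.90 on EDL arrays, against 16.57, 16.64 and 16.86 on myoblast arrays (-3.82, SE 0.10). The elongation factor Eef1a2 was at least 3330-fold higher, while Eef1a1 was lower by -2.09 (SE 0.09).

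In glycolysis the same opposition held at several steps. Phosphoglycerate mutase Pgam2 was higher by 9.65 and Pgam1 lower by -4.05. Enolase Eno3 was higher by 3.09 and Eno1 lower by -4.18, and phosphofructokinase Pfkm was higher by 6.70 and Pfkp lower by -3.28. Hexokinase Hk2 was higher by 2.80 and Hk1 lower by -3.76, and the glucose transporter Slc2a1 was lower by -3.08 beside the higher Slc2a4. In respiration Cox6a1 (-1.49) and Cox8a (-1.73) were lower beside Cox6a2 and Cox8b, while Cox7a2 (1.85) was higher together with Cox7a1 (9.86).

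The exceptions were few. The other form was higher too for Cox7a2, for fructose bisphosphatase Fbp1 (3.42, SE 0.41; above background on 1 of 3 myoblast arrays; -0.08 with normexp) and for brain creatine kinase Ckb (2.91, with 1 of 2 probes; 0.66 and not called as their mean). It was not called for the calcium pump Atp2a3 (0.97; -0.40 with spike-in scaling) and for Phkg2 (0.97; -0.39). Tk2, counted in the place of a muscle form, was the 1 such form not called, beside a lower Tk1.

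**Figure D4:**
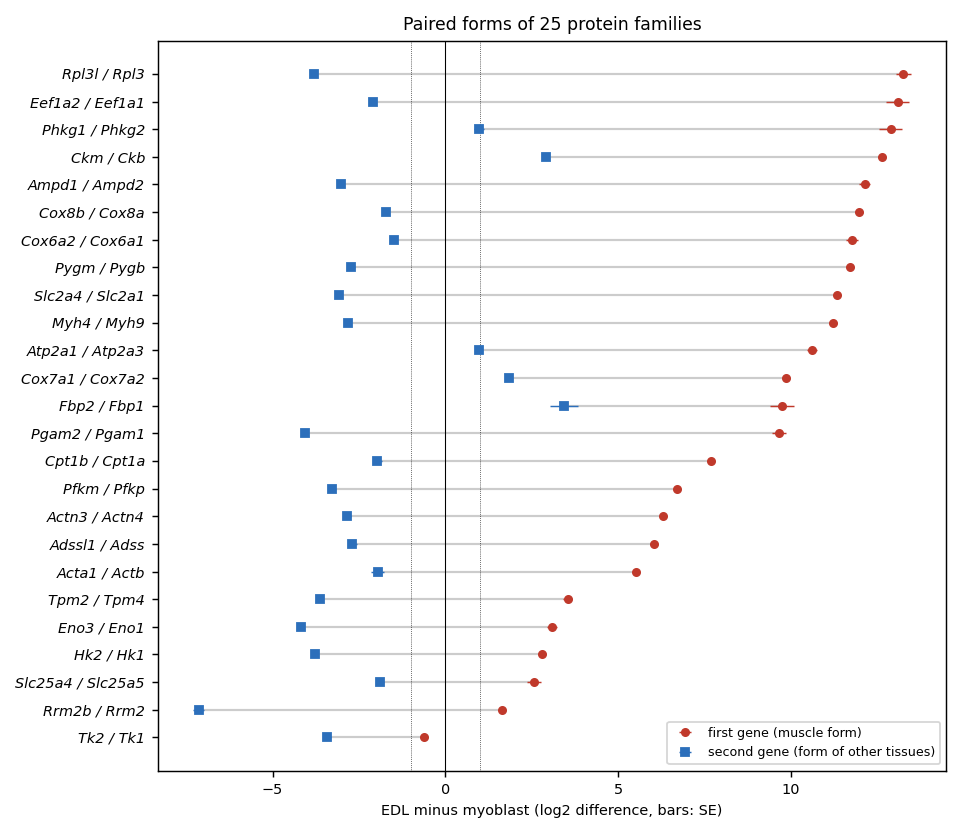
EDL minus myoblast log2 difference, with SE, of the muscle form (circles) and the form of other tissues (squares) in 25 of the 26 protein families. Rrm2b and Tk2 are drawn as muscle forms although their pairs are not tissue forms. All circles but Tk2 lie right of the upper 2-fold line, and 20 squares lie left of the lower one.

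Of 25 non-muscle cytoskeleton and adhesion genes 22 were lower, none higher and 3 not called (median -3.40). The calcium-binding S100a4 read 12.79, 12.72 and 12.76 on EDL arrays, against 18.48, 18.19 and 17.93 on myoblast arrays (-5.44, SE 0.13). Thymosin Tmsb10 (-5.04), S100a11 (-4.92) and transgelin-2, Tagln2 (-4.88), followed. The light chain Myl9 stood at 0.20, and at -1.16 with spike-in scaling and -0.14 with quantile normalization. Of 12 target genes of YAP and TAZ, the effectors of mechanical signalling, 8 were lower and 1 higher (median -2.18). The LIM protein Ajuba (-3.76), Ankrd1 (-3.26), tissue factor F3 (-3.01) and the receptor kinase Axl (-2.94) were lower. Crim1 was the higher one (1.07, SE 0.14; -0.29 with spike-in scaling and 0.92, not called, without replicate 1).

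Of 20 collagen and matrix genes 10 were lower, 4 higher and 6 not called (median -1.07; 16 were lower with spike-in scaling). Thrombospondin Thbs1 was lower by -6.30 (SE 0.13), fibronectin Fn1 by -4.74 (SE 0.17) and tenascin Tnc by -4.62. Collagen Col15a1, of basement membranes, was higher by 7.35 (SE 0.56; above background on 1 of 3 myoblast arrays), Col6a2 by 3.42 and Col6a1 by 2.48. Col1a2 overlapped between groups, averaging 15.91 ± 0.34 on EDL arrays and 16.22 ± 0.23 on myoblast arrays (SD, n = 3 each; -0.31, SE 0.11), and was not called. EDL arrays hold RNA of fibroblasts and vessels, whose markers are given below, and their part in these values was not tested.

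Outside muscle structure, 11 of 15 circadian clock genes were higher, 2 lower and 2 not called (median 2.19; 7 higher with spike-in scaling and 6 with normexp). The output factors Hlf (6.95, SE 0.58; above background on 2 of 3 myoblast arrays) and Dbp (3.83, SE 0.08), the receptor Rora (5.75) and Per3 (3.62) were higher. The core activators went the other way, with Arntl (BMAL1) at 8.81, 8.96 and 8.93 on EDL arrays, against 10.13, 10.09 and 10.26 on myoblast arrays (-1.26, SE 0.09) and Clock at -1.42 (SE 0.09). Cry1 stood at 0.75 (-0.61 with spike-in scaling). The labels give no time of day.

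Of 13 imprinted growth genes 7 were higher, 3 lower and 3 not called (median 1.52; under spike-in scaling 3 higher, 5 lower). The noncoding RNA Meg3 (chromosome 12, 110019275 to 110019334, plus strand, mm8) read 12.07, 12.35 and 12.28 on EDL arrays, against 3.73, 3.62 and 3.36 on myoblast arrays (8.66, SE 0.14). The signalling adaptor Grb10 was higher by 8.00 (SE 0.15). The noncoding RNA H19 was lower, at 12.66, 12.53 and 12.55 on EDL arrays, against 14.16, 13.95 and 14.28 on myoblast arrays (-1.55, SE 0.10), and Sgce (-1.59) and Zim1, at least 1.12-fold lower, were lower too. In soleus minus EDL, where 4.73% of all genes were called higher and 5.38% lower, H19 was higher by 2.55 (SE 0.09, adjusted p = 4.76e-07), or 2.35 with spike-in scaling. Of 28 tested Hox genes 15 were higher, 2 lower and 11 not called (median 1.04, or -0.32 with spike-in scaling), with 6 higher under spike-in scaling and 2 with normexp. Hoxd4 was at least 24.9-fold and Hoxd8 at least 27.0-fold higher, Hoxb6 higher by 5.09 (SE 0.13) and Hoxc13 at least 5.23-fold lower. Another 8 Hox genes were below the filter on dim probes.

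Of 16 atrophy, FoxO and autophagy genes 10 were higher and 1 lower (median 1.84). The glucocorticoid-responsive factor Klf15 was not above background on any myoblast array and was at least 1080-fold higher. The ubiquitin ligases Trim63 (MuRF1, 8.29, SE 0.09) and Fbxo32 (atrogin-1, 3.83, SE 0.13) and the F-box protein Fbxo31 (4.66) were higher, cathepsin L (Ctsl) was lower (-1.17) and Fbxo30 stood at 0.25 (-1.11 with spike-in scaling). Of 16 immediate early genes, which respond within minutes to stimuli, 9 were lower, 1 higher and 6 not called (median -1.21). Fosl1 was at least 114-fold lower and Ier3 (-2.52) and Atf3 (-2.33) were lower, while the orphan receptor Nr4a1 was higher, at 16.52, 16.50 and 16.55 on EDL arrays, against 12.56, 12.53 and 12.54 on myoblast arrays (3.98, SE 0.08). Fos overlapped between groups (-0.24, SE 0.19).

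Of 15 genes of the unfolded protein response 8 were lower and 2 higher (median -1.03). Creld2 (-2.59), Pdia6 (-2.25) and Pdia4 (-1.67), all of the endoplasmic reticulum, were lower, and Dnajb9 (2.21) and Herpud1 (1.37) were higher but not called with spike-in scaling (0.85 and 0.01). Of 10 class I antigen presentation genes 5 were higher and none lower (median 1.37), or 1 higher with normexp. The immunoproteasome subunits Psmb8 (6.99, SE 0.21; above background on 1 of 3 myoblast arrays) and Psmb9 (5.55, SE 0.16) and the transporter Tap2 (3.45) led it.

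Most tested markers of other cell types were called higher on the EDL arrays, against 33% of all genes tested. Part of this was fixed by the filter. At background on every myoblast array were 4 of 12 endothelial, 7 of 14 macrophage and leukocyte, 4 of 14 fibroblast and tendon and 3 of 6 adipocyte markers. So was 1 marker each of the erythroid, smooth muscle and lymphocyte lists. The filter kept these only through EDL, so they could hardly be called lower. All 12 endothelial markers were higher (median 7.32, or 6.62 with bounds), and their summed scaled signal was 53100 to 55600 on EDL arrays, against 1210 to 1420 on myoblast arrays. Of 14 macrophage and leukocyte markers 12 were higher and 1 lower (summed signal 15300 to 15700 on EDL arrays, against 741 to 980 on myoblast arrays). Of 14 fibroblast and tendon markers 12 were higher and 2 lower (255000 to 266000 on EDL arrays, against 95500 to 99000 on myoblast arrays), and of 8 Schwann cell markers 7 were higher (18100 to 18500 on EDL arrays, against 12200 to 13300 on myoblast arrays). All 6 tested adipocyte markers (81700 to 85400 on EDL arrays, against 131 to 162 on myoblast arrays) and all 3 tested erythroid markers (27900 to 35800 on EDL arrays, against 107 to 178 on myoblast arrays) were higher. Of 10 smooth muscle and pericyte markers 7 were higher and 1 lower (351000 to 404000 on EDL arrays, against 55900 to 65100 on myoblast arrays). That list holds desmin (Des), which muscle fibres make too, so its sum is not that of smooth muscle and pericytes alone. The part of desmin in it was not tested. Of 10 lymphocyte markers 5 were below the filter and 4 higher (359 to 654 on EDL arrays, against 146 to 227 on myoblast arrays).

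On the myoblast arrays the endothelial markers Emcn, Cdh5 and Tie1, the macrophage markers C1qc and Mrc1, the fibroblast markers Thy1, Dpt and Tnmd, the adipocyte markers Cfd and Adipoq, the erythroid Alas2 and the pericyte marker Rgs5 were not well above background on any array. Emcn was at least 876-fold and Rgs5 at least 2030-fold higher in EDL. The markers that went the other way were Cd14 (-1.33), the tendon factor Scx (-3.32), Ly6a (-1.10) and calponin Cnn1 (-3.87). Satellite cell markers did not follow, with 3 of 11 higher and 6 lower (median -1.53, summed signal 9310 to 9520 on EDL arrays, against 20300 to 22700 on myoblast arrays). The C-type lectin Chodl and the calcitonin receptor Calcr were at least 23.1-fold and 8.22-fold higher, and the adhesion molecule Vcam1 lower by -3.23. The part of other cell types in the matrix, clock, imprinted, Hox and antigen presentation values was not tested. All 15 fast fibre genes were above background on every EDL array.

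Set beside the other groups against the same myoblast arrays, EDL and soleus had like medians in many lists but not in all. Myotubes had moved part of the way in some lists and the other way in others. For mitosis the medians were -7.88 in EDL, -7.58 in soleus and -5.80 in myotubes. For oxidative phosphorylation they were 2.48, 2.53 and 0.45, for the clock genes 2.19, 2.45 and 0.35, and for the non-muscle cytoskeleton -3.40, -2.96 and -1.30, in the same order. For the slow fibre list the medians lay further apart, with 4.07 in EDL, 7.65 in soleus and 6.32 in myotubes. Smaller gaps between EDL and soleus stood in the fast fibre (9.44 and 8.48), glycolysis (4.25 and 3.57) and fatty acid lists (2.86 and 3.57). All 3 groups share the myoblast arrays and are given side by side only.

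**Figure D5:**
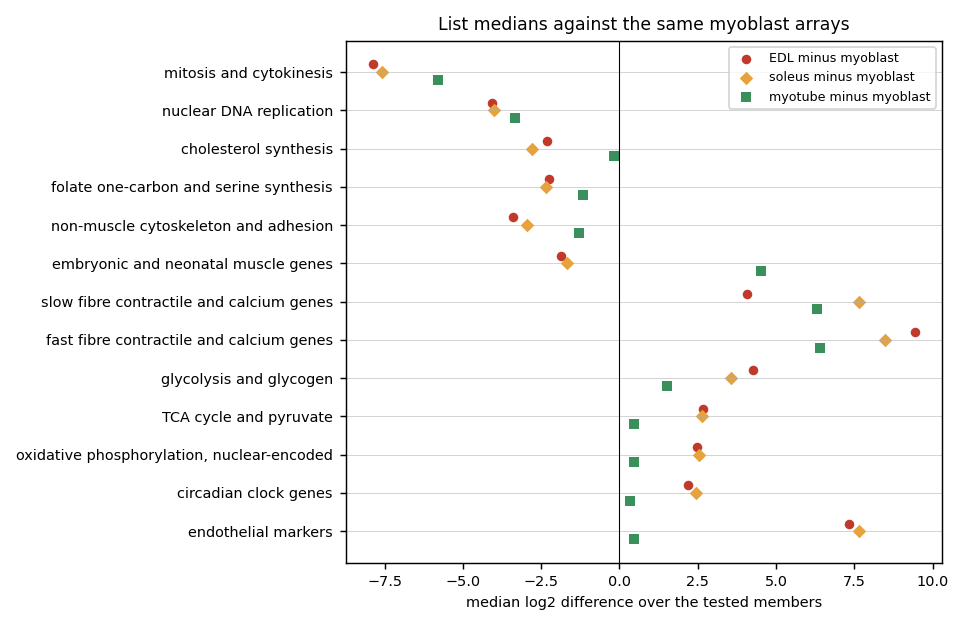
Median log2 difference over the tested members of 13 lists in EDL (circles), soleus (diamonds) and myotubes (squares), each minus the same 3 myoblast arrays. Embryonic muscle genes stand at -1.88 in EDL and 4.51 in myotubes.

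Several of the lowest genes were also far lower in EDL than in myotubes. Alox5 (chromosome 6, 116375927 to 116375986, minus strand, mm8) read 6.71, 6.68 and 6.83 on EDL arrays, against 15.23, 15.26 and 15.17 on myoblast arrays, and 15.15 ± 0.05 (SD, n = 3) in myotubes. EDL was lower than myotubes by -8.41 (SE 0.06, adjusted p = 2.5e-11). Aqp5 was lower than in myotubes by -7.26 (SE 0.55, adjusted p = 3.69e-06) and Ccl2 by -6.57 (SE 0.07, adjusted p = 1.39e-10). Among the genes higher in EDL, Klf15 and Cdkn2b were at background on every myotube array and were at least 771-fold and 59.3-fold higher than in myotubes.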

How the data were processed

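Total RNA of 12 samples was labelled with Cy3 and hybridized to 1-colour Agilent mouse arrays, per the labels' protocols. The deposited scanner files hold spot intensity written by Feature Extraction 10.5.1.1. The software had subtracted background and removed spatial trends, and values were not normalized between arrays, per the file headers. The authors' deposited value table also holds intensity; its between-array normalization is not given in the sources used here, and its log2 values correlated with the scanner values at 0.9976 or above.

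Outlier and control spots were left out, spots of a probe were averaged over 41174 probes, and each array was scaled by its 75th percentile of log2 processed signal, with 9.65 added to all. Probes were kept (27584) if every array of EDL, or every myoblast array, had them well above background, and the brightest stood for its gene. Names came from RefSeq by accession for 24375 probes, by symbol or synonym for 6301 and 2426 and by another accession for 13, and 8059 kept the file's name. limma 3.58.1 in R 4.3.3 (lmFit, eBayes, two-sided, Benjamini-Hochberg over all genes) gave every p-value, with 6 arrays for EDL minus myoblast and all 12 for differences that involve myotubes or soleus. The slide was a block: the labels' replicate number is the slide in the file headers, and deviations from the group means correlated at 0.44, 0.23 and 0.24 on the same slide, against -0.31 to 0.17 otherwise. Slide 1 was scanned on another day. Each group kept 1 position on the slides, so that its effect and that of position cannot be told apart. Precision is limited by the number of arrays.

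The members, 44 gene lists and 26 isoform pairs were chosen with earlier results of these data known. Named genes were all core dNTP enzymes and isoform pairs, the 12 highest and 12 lowest called genes above background on every array, the 6 highest and 6 lowest by bound, and, of each list, up to 4 members with the largest called difference, the first member not called and up to 3 called against the majority. Other scalings, background correction, filters, probe rules, fits and left-out slides were tried. Some genes of these lists are not reported here by name.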

Additional observations from a re-analysis of the deposited data

Results flagged for a closer look

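The imprinted noncoding RNA H19 differed between the muscles. It was lower in EDL by -1.55 (SE 0.10), on all 3 arrays, and stood at 1.01 (SE 0.09) in soleus minus myoblast. The opposite signs depend on the scaling: with spike-in scaling, tried for soleus after seeing the data, the values were -2.91 in EDL and -0.56 in soleus. The test of the difference itself, soleus minus EDL, gave 2.55 (SE 0.09, adjusted p = 4.76e-07 in limma over 12 arrays), and 2.35 with spike-in scaling. In that comparison 4.73% of all genes were called higher and 5.38% lower. H19 was not the named gene that differed most between the muscles: in soleus minus EDL, Myl2 stood at 5.36 and Pvalb at -4.77. What separates the muscles was not tested.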

How the results depend on the processing

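Of 294 named genes, 257 were called. Without the replicate block no call among them changed, and 10565 genes were called in all. Leaving out a slide gave 10531 to 10833 called genes, 5909 to 6136 higher and 4619 to 4741 lower and 18 to 20 opposite isoform pairs. Calls were lost without replicate 1 for Crim1 (0.92) and Samhd1 (-0.96), and without replicate 3 for Ly6a (-0.90), and Pmp22, not called, lay between -0.01 and 0.06 as each slide was left out, lowest without replicate 1.

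The number called was 6018 with normexp, 2552 of them higher, and 17054 with no filter on dim probes, 12361 of them higher. With spike-in scaling 2997 were higher and 9674 lower, because every difference shifts by -1.36. Among called genes signs then turned for genes that include Adsl (-0.03), Crim1 (-0.29), Dguok (-0.27), Mgme1 (-0.12) and Myh3 (-0.19). Among genes not called they turned for Atp2a3 (-0.40), Cd3e (-0.80), Cdkn1b (-0.58), Cry1 (-0.61), Dlk1 (-0.56), Fbxo30 (-1.11), H2-D1 (-0.77), Idh2 (-0.63), Myl4 (-0.88), Myl9 (-1.16), Nt5m (-0.63), Pax7 (-0.65), Pgk1 (-0.43), Phkg2 (-0.39), Pmp22 (-1.34), Prps1 (-0.95), Sgcb (-0.49), Shmt1 (-0.68) and Tnni1 (-0.43). List medians turned for the CDK inhibitors (-1.06), myogenic regulators (-0.95), mitochondrial DNA genes (-1.11) and Hox genes (-0.32).

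With normexp, medians turned for myogenic regulators (-0.23), Hox genes (-0.03) and lymphocyte markers (-0.20), and so did values of genes that include Cd3e (-0.23), Cry1 (-0.02), Dlk1 (-0.51), Fbp1 (-0.08), Nkg7 (-0.51), Pax7 (-0.23), Polg (0.05) and Tap1 (-0.15). Another 38 called genes lost their call with normexp, whose cause was not tested. The CDK inhibitor median was -0.24 over genes above background on all 6 arrays and -0.21 in the authors' deposited table, in which Myl9 stood at -0.08 and Pmp22 at -0.05. With quantile normalization Myl9 stood at -0.14 and Pmp22 at -0.15, and as a mean over probes Polr1a stood at 0.07 and Samhd1 at 1.48. Signal near background limits the precision of dim genes, and 719 genes were not above background on any EDL array.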

Other observations

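Genes of the sex chromosomes differed between the groups. Xist, the RNA of the inactive X chromosome (chromosome X, 99666300 to 99666359, minus strand, mm8), read 2.73, 1.68 and 2.43 on EDL arrays, none above background, against 13.63, 13.74 and 13.16 on myoblast arrays, and was at least 552-fold lower. In myotubes it averaged 13.74 ± 0.28 (SD, n = 3), and in EDL it was at least 645-fold lower than there (adjusted p = 2.1e-09 in limma). The Y-linked genes Ddx3y and Eif2s3y were each at least 659-fold higher in EDL, Uty at least 41.1-fold and Kdm5d at least 30.8-fold, and none of the 4 was above background on a myoblast array. These 4 were chosen after their values were seen. The labels give the EDL mice as male.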
